A study of Mus musculus with 2 samples.

Results

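The miR-30 family of the mouse comprises the hairpin genes Mir30a, Mir30b, Mir30c-1, Mir30c-2, Mir30d and Mir30e, which were taken by name from the GENCODE M21 annotation as 6 of the 2202 microRNA genes counted. They were measured by microRNA-seq in the adrenal gland of female B6CASTF1/J mice, the F1 hybrid of C57BL/6J and CAST/EiJ, at an age of 10 days. The 2 libraries form 1 group with no treatment named, biological replicates 1 and 2 with 1 technical replicate each. Their descriptions number the females 3 and 4, while both carry the same donor entry. A gland holds the steroid-producing cortex, the catecholamine-producing medulla, vessels and capsule together, so that fewer cells of a type and less RNA per cell cannot be told apart in any value below.

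A microRNA is cut from 1 arm of a short RNA hairpin and guides the silencing complex to messenger RNAs that pair with its seed, bases 2 to 8 of the mature molecule. Members of a family share that seed and so can bind the same target sites, while the bases after it differ. The miR-30 family is expressed in many tissues and is best known for keeping epithelial cells, such as kidney podocytes, in their differentiated state, and for roles in autophagy and mitochondrial division. Its genes lie in pairs at 3 loci, each pair on the same strand.

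Mature sequences of 4 of the 6 genes were found in the RefSeq table of GRCm38.p6, namely those of Mir30a, Mir30c-1, Mir30c-2 and Mir30e. They are shown because which genes share a mature molecule decides what a count per gene can hold. Capitals mark the seed. The 5p molecules come from the arm at the 5′ end of the hairpin, and miR-384-5p, from the X-linked gene Mir384, is shown beside them because it has the same seed.
miR-30a-5p: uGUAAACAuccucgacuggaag
miR-30e-5p: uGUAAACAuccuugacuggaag
miR-30c-5p: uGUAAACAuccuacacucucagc
miR-384-5p: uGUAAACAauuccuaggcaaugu

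All of these read GUAAACA at bases 2 to 8, and Mir30a, Mir30c-1, Mir30c-2, Mir30e and Mir384 were the 5 genes with that seed in the table. With positions counted from 1 at the 5′ end, miR-30a-5p and miR-30e-5p were identical at 21 of 22 bases and differed by C13U. miR-30a-5p and miR-30c-5p were identical at 17 of 22 bases and differed first at position 13. miR-384-5p shared 12 of 22 bases with miR-30a-5p and differed first at position 9.

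The 3p molecules fell into a pair of other seeds.
miR-30a-3p: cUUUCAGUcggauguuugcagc
miR-30e-3p: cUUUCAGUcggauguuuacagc
miR-30c-1-3p: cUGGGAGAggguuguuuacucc
miR-30c-2-3p: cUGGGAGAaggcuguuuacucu

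The 3p arms of Mir30a and Mir30e differed by G18A alone. Those of Mir30c-1 and Mir30c-2 matched at 19 of 22 bases. Mir6958, whose 5p arm also has the seed UGGGAGA, had no count in replicate 1 and 1.87 CPM in the other library.

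Mir30c-1 and Mir30c-2 encode the same 5p molecule, which is found in 2 hairpins of the table, whereas the miR-30a-5p and miR-30e-5p sequences are each found in 1. The hairpins of Mir30c-1 and Mir30c-2 are shown with that shared molecule in capitals.
Mir30c-1: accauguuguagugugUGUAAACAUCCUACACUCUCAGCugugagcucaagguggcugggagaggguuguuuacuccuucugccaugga
Mir30c-2: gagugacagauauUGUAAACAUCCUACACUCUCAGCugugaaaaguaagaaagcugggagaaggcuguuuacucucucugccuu

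Reads that align to several places in the genome are in no gene's count. A read of exactly the shared miR-30c-5p molecule fits both loci, so the values of Mir30c-1 and Mir30c-2 below are uncertain and are no totals for miR-30c. Reads with several alignments numbered 1318731 in replicate 1 and 2329968 in replicate 2, which is 23.05 and 19.7 times the counts of the 6 miR-30 genes together. How many of them were miR-30c reads cannot be read from these files.

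The libraries held 2023410 and 3208821 counts assigned to microRNA genes, so that 1 count is worth 0.494 CPM (counts per 1000000 assigned counts) in replicate 1 and 0.312 CPM in replicate 2. Of the cell type marker lists, the endothelial Mir126a made up 17.8% of replicate 1 and 4.79% of replicate 2. The hepatocyte microRNA Mir122 made up 2.67% and 0.928%. The 5 striated muscle genes took 1.13% and 0.451%, with all 4 measured genes lower in replicate 2, and the 7 epithelial genes 0.0742% and 0.327%, all higher. The 5 neuroendocrine genes took 2.82% and 3.50%, with Mir375 higher in replicate 2 and 3 genes lower. The 6 genes of smooth muscle and stroma took 3.16% and 4.03%, with 3 of 5 measured genes higher and 2 lower. The 5 leukocyte genes took 0.245% and 0.431%, all higher, and the red blood cell genes Mir451a, Mir144 and Mir486 0.0653% and 0.0320%, all lower. The 5 genes of kidney or gut epithelium took 0.0411% and 0.0215%, with 1 of 3 measured genes higher and 2 lower. None of the matched genes was at 0 in both libraries. The messenger RNA markers of adrenal cortex and medulla are outside this assay. These lists differ between the same libraries in which miR-30 is compared, and their part in any miR-30 difference was not tested.

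In the assigned counts, the family was present in both glands at a level dominated by 3 of its genes. Reads that fit both Mir30c loci are missing from these counts. The mature sequences of Mir30b and Mir30d were not found, so sharing was not checked for them. Summed over the 6 genes, the share of assigned counts was 2.83% for replicate 1, with an exact Clopper-Pearson 95% interval of 2.80 to 2.85%. For replicate 2 it was 3.69%, with an interval of 3.67 to 3.71%, and the animals averaged 3.26% ± 0.608 (SD, n = 2). All 6 genes reached 10 CPM in both libraries, a level reached by 13.7% of the annotated microRNA genes, and Mir30a, Mir30d and Mir30e reached 1000 CPM in both, as did 3.54% of all genes. Those 3 genes held 98.0% of the family's counts in replicate 1 and 97.8% in replicate 2.

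Mir30d, which in mouse pancreatic beta cells is linked to insulin production, was the most abundant member. Its level was 12269.9 CPM in the first replicate and 13892 CPM in the second, with a mean of 13081 CPM ± 1147 (SD, n = 2). It ranked 17 and 19 among all microRNA genes of the respective libraries. Its neighbours in the order of mean level were Mir99a and Mir99b above it, at 14059 and 13545 CPM on average, and Mir652 and Mir744 below it, at 11839 and 10557 CPM.

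Mir30e, from an intron of Nfyc, the gene of a subunit of the CCAAT-box factor NF-Y, followed at 8661 and 11919 CPM, with a mean of 10289.7 CPM ± 2304 (SD, n = 2). Mir30a, whose product represses the autophagy gene BECN1 in human cancer cells, stood at 6769 and 10254 CPM, a mean of 8511.5 CPM ± 2465 (SD, n = 2). Within each library the order was Mir30d, Mir30e, Mir30a. The values of Mir30d did not overlap those of Mir30e between the animals, whereas the ranges of Mir30e and Mir30a overlapped.

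Counted against each other within a library, Mir30e exceeded Mir30a by a log2 ratio of 0.36 (exact 95% interval 0.32 to 0.39) in the first replicate and by 0.22 (0.20 to 0.24) in the second. That order holds per read. The 5p molecules of both genes have 22 bases, so hairpin length is no correction for these reads. Divided by hairpin length the order turned, because the Mir30e hairpin has 92 bases and that of Mir30a 71. On the scale of CPM per 100 hairpin bases, Mir30a stood at 9533 and 14443 and Mir30e at 9414 and 12955, with Mir30d above both at 14963 and 16941.

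The other 3 members were far lower. Mir30b, which in human melanoma was linked to invasion together with Mir30d, was counted at 231 and 260 CPM, a mean of 245 CPM ± 20.0 (SD, n = 2). Mir30c-2 stood at 199 and 261 CPM, with a mean of 229.8 CPM ± 44.0 (SD, n = 2), and Mir30c-1 at 146 and 283 CPM, with a mean of 214 CPM ± 97.0 (SD, n = 2). miR-30c is known in mouse liver for lowering lipoprotein output through Mttp. The 3 genes could not be ordered by level, since their ranges overlapped, and their order reversed between the libraries: Mir30b was the highest of them in replicate 1 and the lowest in replicate 2, where the neighbours in that order did not differ beyond counting error.

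In the assigned counts, which lack the reads shared by both Mir30c loci, a wide gap separated the abundant from the scarce members. On the scale of CPM per 100 hairpin bases, Mir30b stood at 241 and 270, Mir30c-2 at 237 and 311 and Mir30c-1 at 164 and 318, all far below the abundant genes. In counts of the same library, the lowest of Mir30a, Mir30d and Mir30e stood 29.3-fold above the highest of Mir30b, Mir30c-1 and Mir30c-2 in replicate 1 and 36.2-fold above it in replicate 2. The largest fold difference of a member between the animals was that of Mir30c-1, 146 against 283 CPM. It was 2.01-fold after TMM scaling of the library sizes, without a pseudocount.

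**Figure D1:**
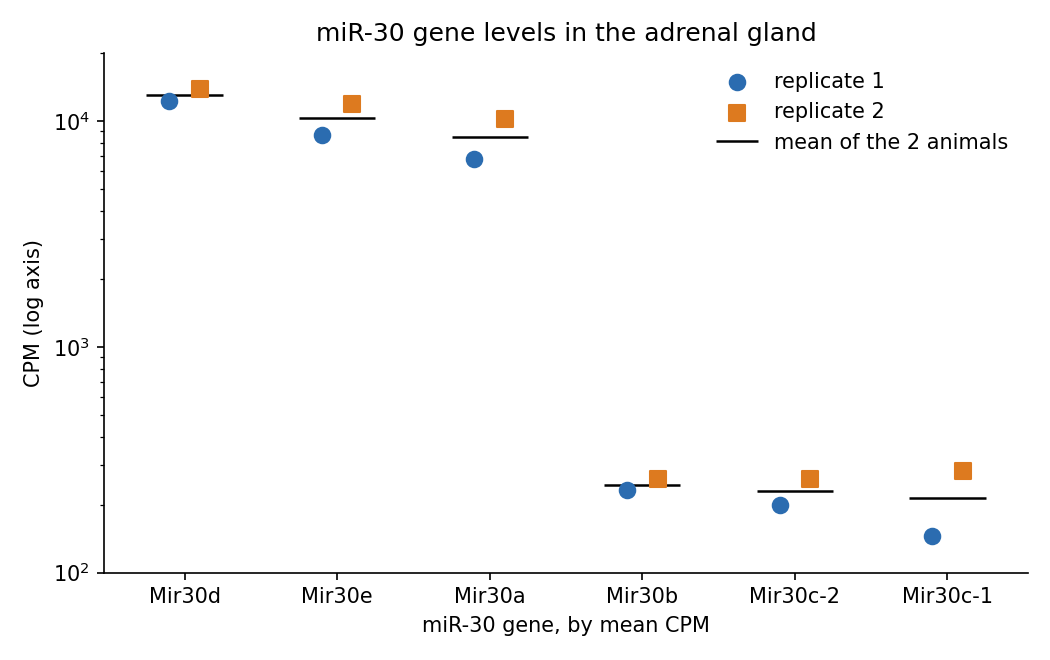
Level of each miR-30 gene in CPM on a log axis, with circles for replicate 1, squares for replicate 2 and a bar at the mean of the 2 animals. Mir30d, Mir30e and Mir30a lie between 6769 and 13892 CPM, and Mir30b, Mir30c-2 and Mir30c-1 between 146 and 283 CPM. Reads with several alignments are not counted.

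Mir384, the same-seed gene outside the named family, added little. It had 46 and 90 counts, or 22.7 and 28.0 CPM, and the difference between the libraries did not pass the test (log2 ratio 0.34, exact 95% interval -0.18 to 0.90, adjusted p = 0.231). Mir30f is annotated on the opposite strand of the Mir30e hairpin and had 0 counts on its own strand in both libraries, for which the limit at 3 counts is 1.48 CPM in replicate 1 and 0.935 CPM in the deeper replicate 2.

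Mir30e and Mir30f occupy the same bases of chromosome 4 in mm10, and the Mir30e value therefore rests on strand-specific counting. Counted irrespective of strand, both are listed at 0, and Mir30e had 17524 and 38245 reads on its own strand. The other 5 members had identical counts with and without regard to strand. Their CPM was higher irrespective of strand, because fewer counts were assigned in total, 1401836 and 2541746. Mir30d then averaged 17624 CPM and Mir30b 331 CPM. None of the 6 had a read on the opposite strand in either library.

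The balance among the abundant members differed between the animals. Mir30d made up 43.4% of the family in replicate 1 (exact Clopper-Pearson 95% interval 43.0 to 43.8%) and 37.7% in replicate 2 (37.4 to 38.0%). Mir30e made up 30.6% and 32.3%, and Mir30a 23.9% and 27.8%, both larger in replicate 2. Mir30b, Mir30c-1 and Mir30c-2 each made up between 0.516% and 0.818% in either library.

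**Figure D2:**
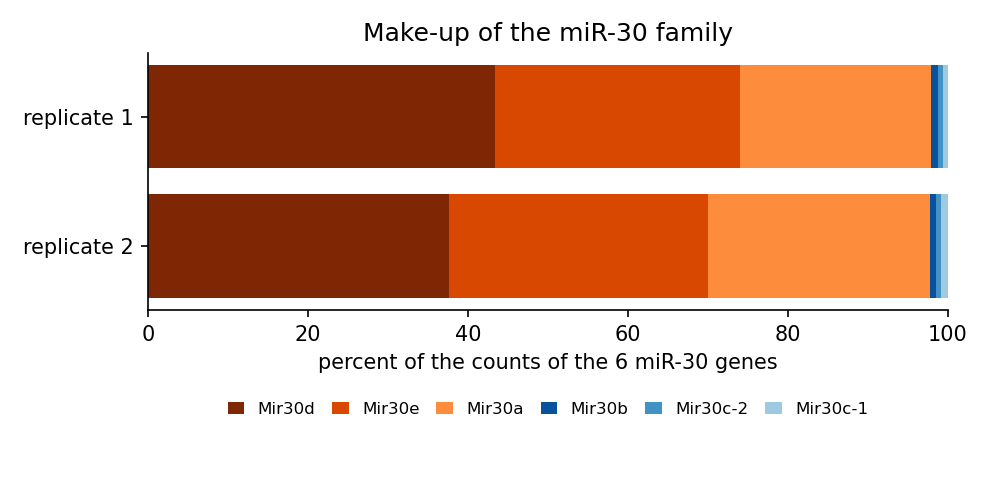
Share of each gene in the summed counts of the 6 miR-30 genes, in percent, with 1 bar per library. Mir30d, Mir30e and Mir30a fill 98.0% of the bar of replicate 1 and 97.8% of that of replicate 2, and the part of Mir30d is 43.4% and 37.7%. Reads with several alignments are not counted.

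Set against counting error with TMM scaling, all 6 members were higher in replicate 2 than in replicate 1, but Mir30d and Mir30b turned to the other side with library totals that leave out Mir126a. The exact conditional binomial test with TMM-scaled library sizes and Benjamini-Hochberg adjustment was run on 329 measured genes, those that reached 10 CPM in at least 1 library. It called 74.2% of them in either direction, 37.7% as higher in replicate 2 and 36.5% as lower, and 49.2% had a log2 ratio above 0. With a floor of 100 CPM, which all 6 members passed, it called 89.9% of 217 genes, and 45.2% as higher. With 6 of 6 members higher, their median log2 ratio was 0.47, beside -0.01 over all measured genes. This test sets these 2 libraries against counting error and compares no conditions.

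Mir30c-1 had the largest log2 ratio of the members, 1.00 (exact 95% interval 0.81 to 1.199, adjusted p = 2.85e-27). Its ratio lies at the limit of 1 log2 unit, which 22.2% of measured genes reached together with the test. It was below that limit at 0.999759 with the pseudocount of 1 CPM, and above it at 1.002 with 0.5 CPM and at 1.03 with DESeq2 size factors. The log2 ratio was 0.65 for Mir30a (0.62 to 0.68), 0.51 for Mir30e (0.48 to 0.53) and 0.44 for Mir30c-2 (0.27 to 0.62, adjusted p = 6.89e-07). The smallest ratios were those of the chromosome 15 genes, 0.23 for Mir30d (0.20 to 0.25, adjusted p = 1.93e-88) and 0.21 for Mir30b (0.05 to 0.38, adjusted p = 0.0143). These 5 genes stayed below 1 log2 unit.

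These ratios depend on how the libraries are scaled. With plain library totals Mir30b no longer passed (0.17, adjusted p = 0.0624). With totals that leave out Mir126a, the gene that differed most in share, the ratios of all measured genes shifted to a median of -0.26. Of the genes called, 35.3% were then higher in replicate 2, against 50.8% with TMM. The ratio of Mir30d was then -0.032 (adjusted p = 0.00666) and that of Mir30b -0.045 (adjusted p = 0.632), and Mir30c-2 did not pass (0.18, adjusted p = 0.0510). Mir30a, Mir30e and Mir30c-1 were called higher under each scaling tried. A scaling shifts all genes nearly alike, so by construction the members' median stays about 0.48 above that of all measured genes.

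**Figure D3:**
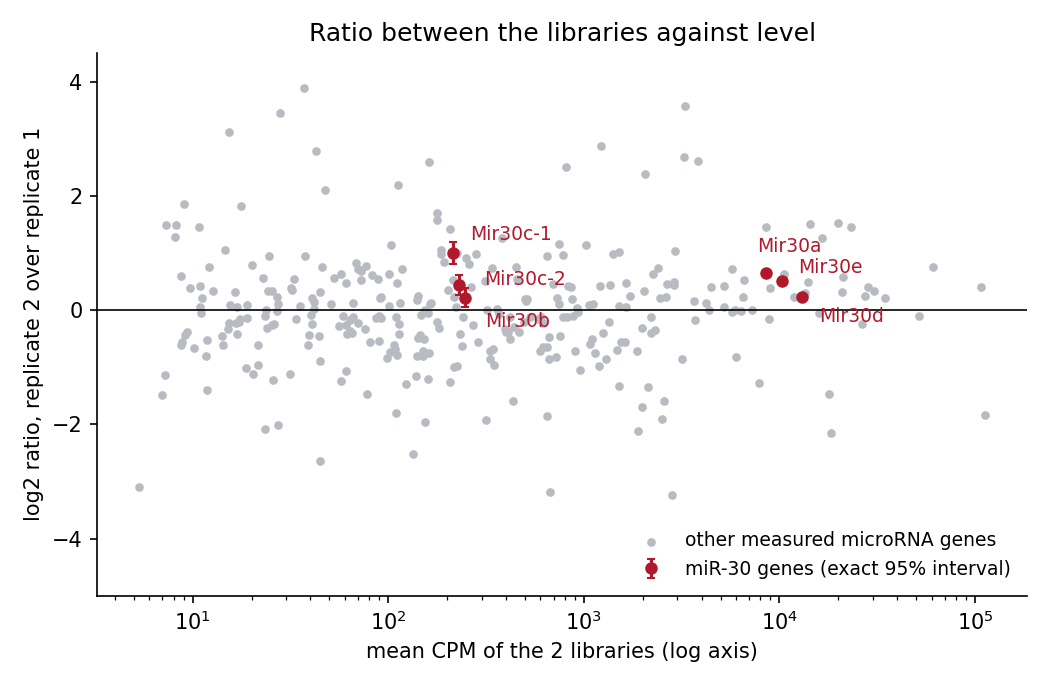
Log2 ratio of replicate 2 over replicate 1 against the mean CPM of the 2 libraries on a log axis, for the 329 measured genes, with TMM scaling. Red points are the miR-30 genes with exact 95% intervals, between 0.21 and 1.00, and grey points the others; without Mir126a in the library totals, Mir30d and Mir30b move to -0.032 and -0.045.

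The 6 ratios spanned 0.79 log2 units and had an SD of 0.29, while the SD over all measured genes was 1.01. The interval from 0.21 to 1.00 that they covered held 28.3% of measured genes. Among the families set beside miR-30, the ratios of 12 let-7 genes spanned 1.16 units, those of 6 genes of the miR-99/100 and miR-125 families 1.32, those of 6 miR-23/27/24 genes 2.67 and those of 6 miR-181 genes 3.15. The 12 measured genes of miR-17/92 and its paralogs spanned 1.94 and the 3 miR-26 genes 3.41. The miR-26 ratios were 0.47 for Mir26a-2, 1.27 for Mir26b and 3.89 for Mir26a-1, which had only 8 counts in replicate 1 and 225 in replicate 2. The genes Mir148a, Mir148b and Mir152 spanned 0.70 and the 2 measured miR-29 genes 0.000243, both less than miR-30. With families of different size and depth, and reads with several alignments not counted, these spans are a description.

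In share of counts, the miR-99/100 and miR-125 families came closest to miR-30 by mean share, with 3.51% and 3.92% in replicates 1 and 2. The miR-23/27/24 genes took 2.82% and 6.72%, the let-7 genes 15.5% and 19.04%, and the miR-26 genes 1.00% and 2.33%. Reads with several alignments are missing from all these shares, and sharing of mature molecules was not checked for these families. Mir26b alone held 99.4% of the miR-26 counts in each library. The shares therefore compare assigned counts and are no totals of each family's output.

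The genes of at least 1000 CPM whose ratio lay nearest to the miR-30 median were Mirlet7f-2 (1402 and 1894 CPM, log2 ratio 0.48), Mir99a (11914.5 and 16204 CPM, 0.49) and Mir100 (2452 and 3341 CPM, 0.49). These genes were picked for that nearness, so the small difference of log2 ratios, 0.0203 at most, follows from the choice. It also rests on 2 libraries.

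The 3 genomic pairs carried the contrast between abundant and scarce members. On chromosome 15 of mm10, minus strand, Mir30d (positions 68341208 to 68341289) lies 3697 bases upstream of Mir30b (68337415 to 68337510). Mir30d overlaps exons of the noncoding transcripts Gm20732 and Gm37296, and Mir30b an exon of Gm26621. On chromosome 4, minus strand, Mir30e (120772606 to 120772697) lies 2983 bases upstream of Mir30c-1 (120769534 to 120769622), both in introns of Nfyc. On chromosome 1, plus strand, Mir30a (23272269 to 23272339) overlaps no other annotated gene and lies 19361 bases upstream of Mir30c-2 (23291701 to 23291784), which is in an exon of the noncoding gene Gm27028.

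Mir30d was counted 53.05-fold above Mir30b in replicate 1, with an exact 95% interval of 48.4 to 58.3, and 53.5-fold above it in the other library (49.97 to 57.4). The intervals of the ratio in the glands overlap. Its change on the log2 scale was 0.01, with an exact 95% interval of -0.16 to 0.18 (exact conditional test, adjusted p = 0.916).

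Mir30e was counted 59.4-fold above Mir30c-1 in replicate 1 (52.9 to 66.9) and 42.1-fold in replicate 2 (39.4 to 45.03). The log2 ratio fell by 0.50 (interval of the change -0.69 to -0.30), which passed the exact conditional test with Benjamini-Hochberg adjustment over 115 neighbouring pairs (adjusted p = 3.86e-07).

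Mir30a was counted 34.1-fold above Mir30c-2 in replicate 1 (30.9 to 37.7) and 39.3-fold in replicate 2 (36.7 to 42.2). The change of 0.21 on the log2 scale (0.03 to 0.38) passed at an adjusted p of 0.0304 by the same exact test. Of the 3 pairs, 2 thus changed between the libraries, near the 73% of the 115 neighbouring pairs that did. Within-library ratios do not depend on the scaling of the libraries.

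In all 3 pairs the gene first in the direction of transcription was the abundant one, in both libraries. Among the 115 pairs of neighbouring measured genes on the same strand and at most 25 kb apart, 53.9% had the upstream gene higher in both. The miR-30 pairs stood apart by 5.74, 5.64 and 5.19 log2 units on average for Mir30d with Mir30b, Mir30e with Mir30c-1 and Mir30a with Mir30c-2. Over the 115 pairs the median absolute difference was 2.48 log2 units, and 27% differed by at least 4. By size of the difference the 3 pairs ranked 11, 12 and 18 of 115. With a floor of 100 CPM they ranked 4, 5 and 6 of 85. Of the wider pairs among the 115, those without numbered copies were Mir544 with Mir382, Mir206 with Mir133b, Mir3070a with Mir431 and Mir377 with Mir541. Those with numbered copies were Mir19b-1 with Mir92-1 and with Mir20a, Mirlet7f-1 with Mirlet7d, Mirlet7c-2 with Mirlet7b, Mir199a-2 with Mir214 and Mir542 with Mir450-2. This grouping was made after the values were seen. Both groups hold genes with few counts in replicates 1 and 2, among them Mir133b with 36 and 19, Mir3070a with 31 and 26 and Mir19b-1 with 22 and 24. The ratio of Mir544 over Mir382 changed most of all pairs between the libraries, by -4.91 log2 units. The part of uncounted shared reads in any of these differences was not tested.

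**Figure D4:**
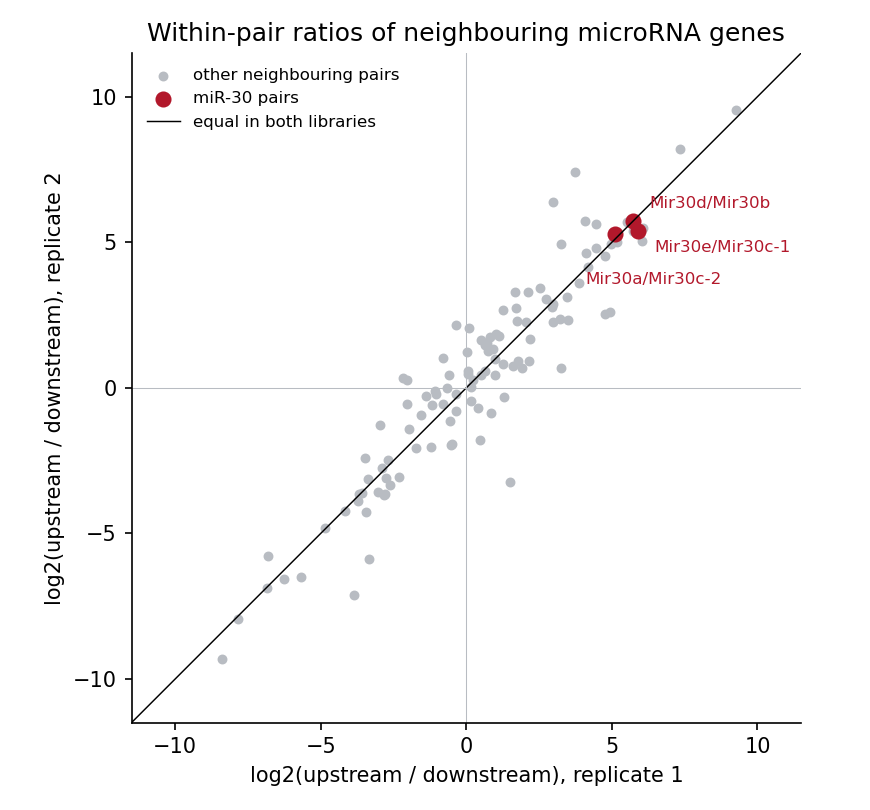
Log2 ratio of the upstream over the downstream gene for 115 pairs of neighbouring microRNA genes, in replicate 1 on the horizontal and replicate 2 on the vertical axis, with the line of equality. The 3 miR-30 pairs, in red, lie between 5.09 and 5.89 in replicate 1 and between 5.30 and 5.74 in replicate 2.

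Summed by locus, the chromosome 15 pair led with 12501 and 14151 CPM, followed by the Nfyc pair with 8806 and 12202 CPM and the chromosome 1 pair with 6967 and 10515 CPM. The log2 ratio between the libraries was 0.23 for chromosome 15 (exact 95% interval 0.20 to 0.25), 0.52 for chromosome 4 (0.49 to 0.54) and 0.64 for chromosome 1 (0.61 to 0.67). The intervals of the 3 loci do not overlap, which holds under any scaling because a scaling shifts all of them alike.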

How the data were processed

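The deposited tables hold raw counts of reads per microRNA gene in 3 columns, irrespective of strand, on the gene's strand and on the opposite strand, after 4 summary lines. The build mm10 is given per the labels, and all 2202 gene IDs matched GENCODE M21. The aligner and counter used are not given in these sources. The gene-strand column was used, since Mir30e overlaps Mir30f on the other strand. CPM was taken over all assigned counts, without the summary lines. Assigned counts were 38.3% of the 5278986 reads of replicate 1 and 37.5% of the 8555429 reads of replicate 2.

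With 1 group and 1 library per replicate, edgeR's quasi-likelihood test could not be used. The libraries were compared gene by gene by an exact binomial test, two-sided and conditional on each gene's summed counts, with TMM-scaled library sizes (edgeR 4.0.16, R 4.3.3). Genes with at least 10 CPM in either library were tested, with Benjamini-Hochberg adjustment over 329 genes and a threshold of 0.05. Log2 ratios are replicate 2 over replicate 1 with a pseudocount of 1 CPM. Within-pair ratios of counts have no pseudocount in the text. Their change was tested with an exact conditional test of the 2 by 2 counts, adjusted over 115 same-strand neighbours within 25 kb. Intervals are exact 95% intervals (SciPy 1.17.1), and a count of 0 was given a limit of 3 counts. Both cover counting error only. Both tests were tried on simulated counts with counting error only, which cannot show how they behave under variation between animals.

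Named genes were the 6 members, genes with the miR-30 seed, the 3 genes of at least 1000 CPM with the ratio nearest to the members' median, the 2 genes above and the 2 below Mir30d in mean CPM, and cell type markers where a value moved with a miR-30 result. The members and lists were chosen with earlier results of these data known. Alternatives covered strand, denominator, scaling (DESeq2 1.42.0 size factors among them), pseudocount, floor, pair distance and single replicates.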

Additional observations from a re-analysis of the deposited data

Results flagged for a closer look

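Mir30f drew attention because of reads in a column that the comparisons do not use. It had 0 counts on its own strand, and its opposite-strand column held 17524 counts in replicate 1 and 38245 in replicate 2. These are exactly the numbers of Mir30e, which occupies the same bases on the other strand.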

How the results depend on the processing

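No paired analysis was possible because the libraries form 1 group. The family's share was 1.23% of all reads in the tables and ranged from 2.83% to 3.69% with single replicates. Leaving out a replicate gave within-pair log2 ratios of 5.73 to 5.74 for Mir30d over Mir30b, 5.396 to 5.89 for Mir30e over Mir30c-1 and 5.09 to 5.30 for Mir30a over Mir30c-2. With library totals that leave out Mir126a, the members' median log2 ratio was 0.21, with -0.032 for Mir30d and -0.045 for Mir30b, and 3 members were called higher and 1 lower. When 1 log2 unit was also asked for, 0 members passed, but Mir30c-1, at 0.999759, reached 1.002 with a pseudocount of 0.5 CPM and 1.03 with DESeq2 size factors, and without a floor 247 of 790 genes were called in place of 244 of 329. The median difference within neighbouring pairs was 2.19 log2 units within 10 kb and 1.63 with a floor of 100 CPM, both over fewer pairs. Per 100 hairpin bases, a scale chosen after seeing the data and no correction of the read counts, the log2 ratio of Mir30e over Mir30a was -0.088. Irrespective of strand Mir30e is listed at 0, so its ratio and its pair gave no value there, and neither did the pair of Mir30a within 10 kb. Apart from the construction of each alternative, causes were not tested. The lower depth of replicate 1 limits Mir30b, Mir30c-1 and Mir30c-2 most, with 295 to 468 counts there.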
